A study of Homo sapiens with 12 samples.

Results

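The comparison described here is the interaction of cell line and Dox/IAA treatment in HCT116 cells, a human colorectal carcinoma line. For each gene the Dox/IAA response of parental cells was subtracted from that of SDS22-degron cells, with both responses expressed as log2 fold changes. A positive interaction thus means that the response of SDS22-degron cells lay above that of parental cells, and a negative one that it lay below. All 12 of the 12 RNA-seq libraries of the series enter this contrast. Of 16657 genes tested, 2396 were called at an adjusted p under 0.05.

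The 4 groups held 3 libraries each. Parental HCT116 cells carried OsTIR1, the plant F-box receptor for auxin, under a Tet-inducible promoter at the AAVS1 locus. SDS22-degron cells carried the same transgene and, in addition, a mini-auxin-inducible degron (mAID) and the fluorescent protein mClover fused to SDS22 at its endogenous gene, PPP1R7. They were grown from isolated colonies, so the tag and the properties of that line cannot be told apart. Each line was left untreated or received 2 µg/ml doxycycline (Dox) plus 500 µM indole-3-acetic acid (IAA) for 48 h. Dox and IAA were given together in these libraries, and their separate effects cannot be told apart. The labels call the libraries of a group biological replicates without saying what was repeated, and p-values measure the spread between them.

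SDS22 is a leucine-rich-repeat protein that binds newly made protein phosphatase-1 (PP1), a Ser/Thr phosphatase that acts with many regulatory subunits. Dox induces OsTIR1, and IAA then bridges OsTIR1 to the degron, so that the tagged protein is ubiquitylated and degraded. Parental cells meet the same drugs and the same induced receptor without a degron-tagged protein. The interaction addresses which part of the transcript response differs between a line with tagged SDS22 and a line without it.

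The degron acts on the protein, and the PPP1R7 transcript is therefore no check of depletion. PPP1R7 stood at 40.1, 47.7 and 43.2 CPM (read counts scaled to library size, with trimmed mean of M-values or TMM factors) in untreated parental cells and at 44.2, 50.01 and 42.1 CPM in treated parental cells. In SDS22-degron cells it stood at 40.6, 45.7 and 45.8 CPM without treatment and 48.1, 44.4 and 51.1 CPM with it. All 4 groups overlapped, and the interaction was 0.06 ± 0.13 (SE, log2) with an adjusted p of 0.781. Values after ± are SEs throughout, and adjusted p-values come from edgeR's quasi-likelihood F test over all tested genes.

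Gene counts summed to 12133915 to 14657508 per library, and the median SE of an interaction was 0.156. Epithelial markers were expressed in all groups, led by KRT8 with group means of 1212 to 1632 CPM, while the listed colonic markers CDX1, CEACAM5 and LGALS4 had no counts in at least 1 group. The 7 leukocyte markers summed to at most 1.06 CPM and the 5 endothelial markers to at most 1.89 CPM in any library. Of 8 fibroblast markers, 5 or 6 in each group had no counts in all 3 libraries, and COL1A1 had group means of 11.5 to 27.8 CPM. Some libraries stood apart for some genes. The first untreated parental library was far above its replicates for several stress genes, and both second parental libraries were highest for many cell cycle genes. For the results described most closely, values without them are given as well.

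The called genes split into 1005 higher (6.03% of tested genes) and 1391 lower (8.35%), or 14.4% in either direction. The median interaction over all tested genes was -0.0019. The study's own cut-off asks for an unadjusted p under 0.05 with a log2 value beyond 1 in size. The study gives it for treated SDS22-degron against parental cells, not for the interaction. Applied to the interaction, it left 191 genes higher (1.15%) and 409 lower (2.46%). For the genes called lower, the median response was -0.78 in SDS22-degron cells and -0.12 in parental cells. Those called higher had a median response of 0.57 in SDS22-degron cells and 0.0065 in parental cells. These medians describe genes that were picked by the difference itself.

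Much of the response to Dox/IAA was shared by the lines. Dox/IAA changed 8580 genes (51.5%) in SDS22-degron cells and 5264 (31.6%) in parental cells. The 2 responses share no library, and 3976 genes were called in both. They made up 46.3% of the calls in SDS22-degron cells and 75.5% of those in parental cells, and 3894 of them (97.9%) had the same direction. The remaining 82 genes moved in opposite directions, 37 up in SDS22-degron and down in parental cells and 45 the other way round.

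**Figure D1:**
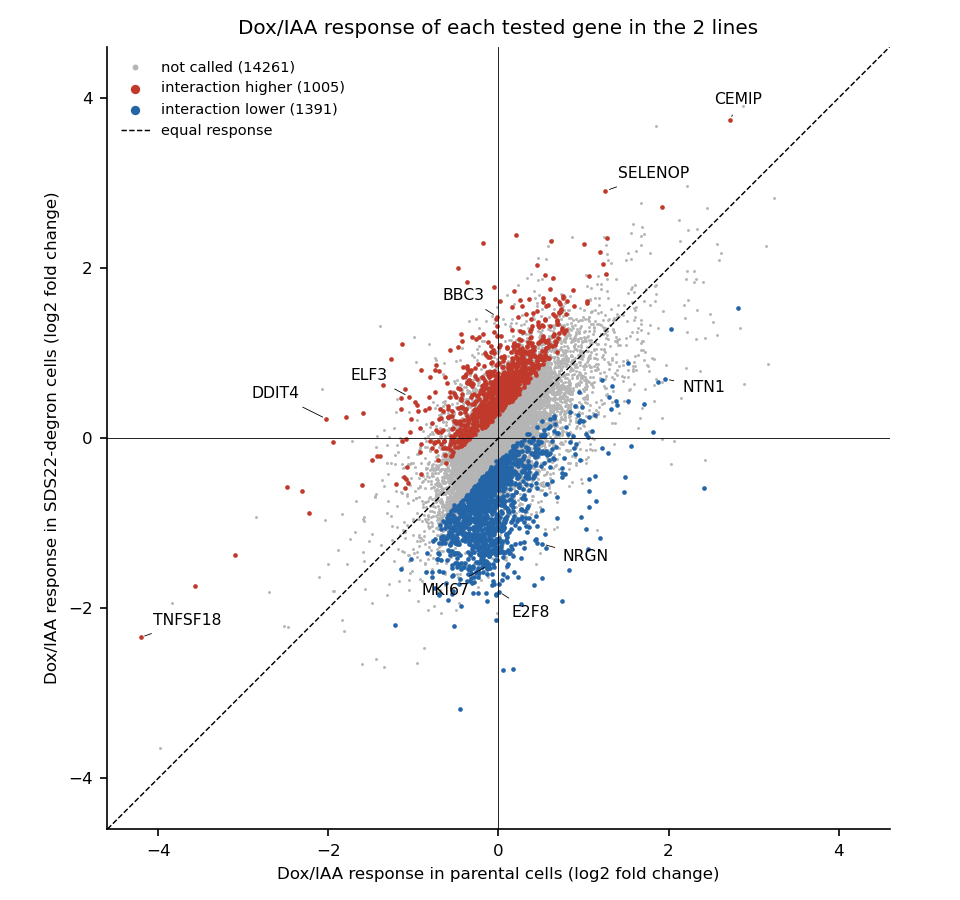
Each point is 1 tested gene, with the log2 response to Dox/IAA in parental cells on the x axis and in SDS22-degron cells on the y axis. The genes called in the interaction (1005 higher, 1391 lower) lie off the dashed line of equal response, and the lower ones cluster at parental responses near 0. The axes leave out 6 genes.

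In the G2/M list, which holds genes of mitotic entry, the spindle and the kinetochore, 48 of 50 tested members were called lower and 0 higher. Of all tested genes, 8.35% were called lower and 6.03% higher. The list's median response was -1.34 in SDS22-degron cells and -0.12 in parental cells, with a median interaction of -1.25. Taken from each replicate number alone, the median was -0.99, -1.42 and -1.32. All 50 members fell in SDS22-degron cells (25.5% of tested genes fell there), and 6 fell in parental cells (15.7%). With the replicate number as a block the latter count was 12. Without the second treated parental library it was 26, with a parental median of -0.27. Without any other single parental library it was 2 to 7. The 2 members that missed the threshold were BUB3, a checkpoint protein, with an interaction of -0.31, and CDC25B, a phosphatase that activates cyclin-dependent kinases (CDKs), with -0.30. In bulk RNA, fewer cells in a phase and less transcript per cell cannot be told apart.

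MKI67, which encodes the Ki-67 protein that coats mitotic chromosomes and also docks PP1, stood at 652, 739 and 710 CPM in untreated and 558, 806 and 567 CPM in treated parental cells. In SDS22-degron cells it fell from 878, 870 and 905 CPM to 335, 311 and 294 CPM. The treated SDS22-degron libraries did not overlap any other group, and the second treated parental library was the highest of its group. The interaction was -1.38 ± 0.15 (adjusted p = 2.76e-05), and for MKI67 it was -1.44 without the second untreated and -1.17 without the second treated parental library.

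CCNB1, cyclin B1, stood at 215, 299 and 248 CPM in untreated and 177, 258 and 191 CPM in treated parental cells. Its values in SDS22-degron cells were 281, 286 and 285 CPM before and 96.4, 88.9 and 77.6 CPM after treatment. The untreated and treated parental libraries overlapped, while those of SDS22-degron cells lay far apart, and the interaction was -1.41 ± 0.17 (adjusted p = 5.39e-05). For CCNB1 it was -1.56 and -1.21 without the second untreated and the second treated parental library. KIF20A, a kinesin of the central spindle, had an interaction of -1.24 ± 0.14, and the kinase gene AURKB had -1.35 ± 0.14. KIF14, a kinesin of cytokinesis, had -1.59 ± 0.21 and was among the 10 lowest named genes. BIRC5, which encodes survivin of the chromosomal passenger complex, fell by 1.55 in SDS22-degron cells against a parental response of -0.24.

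In the G1/S list, genes of replication licensing, nucleotide supply and E2F control, 39 of 44 tested members were called lower and 0 higher. That is 88.6%, against 14.4% of all tested genes. Its median response was -1.19 in SDS22-degron and -0.20 in parental cells, and the median interaction was -0.95. In SDS22-degron cells 42 members fell (25.5% of tested genes fell there), and in parental cells 14 did (15.7%) and 1 rose (15.9%). Without the second treated parental library 25 fell in parental cells, with a parental median of -0.32. Without any other single parental library 8 to 18 did. The 5 members without a call were CCNE1 (-0.48), UNG (-0.28), SLBP (-0.25), CCND3 (-0.19) and CCND1 (0.06). Both D-type cyclins of the list, which act upstream of E2F, were thus among the 5. CCND1, cyclin D1, showed 796, 905 and 893 CPM in untreated and 823, 768 and 847 CPM in treated parental cells, and between 1263 and 1479 CPM in all 6 SDS22-degron libraries.

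E2F8, a repressive E2F family member, had the largest drop in the list. It stood at 25.1, 33.6 and 29.1 CPM in untreated parental, 27.6, 34.6 and 25.8 CPM in treated parental and 24.9, 22.1 and 23.7 CPM in untreated SDS22-degron cells, against 8.85, 5.50 and 5.77 CPM in treated SDS22-degron cells. The parental response was 0.0015 and the interaction -1.81 ± 0.21 (adjusted p = 3.93e-05).

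E2F1, the activating family member, stood between 54.2 and 55.5 CPM in all 6 parental libraries, and in SDS22-degron cells it fell from 62.6, 59.6 and 60.8 CPM to 32.8, 18.6 and 28.6 CPM. The phosphatase CDC25A had an interaction of -1.24 ± 0.16, thymidine kinase TK1 -1.10 ± 0.13, the replicative helicase subunit MCM7 -0.93 ± 0.10, GINS2 of the same helicase -1.14 ± 0.17 and the primase cofactor POLA2 -1.38 ± 0.16. Leaving out any 1 library, 48 to 49 genes of the G2/M list and 38 to 42 of the G1/S list were called lower, with medians of -1.37 to -1.07 and -1.03 to -0.84.

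These 2 groups are known to be read through different promoter elements: CHR and CCAAT elements in G2/M genes, bound by MuvB complexes and NF-Y, and E2F sites in G1/S genes. The last 110 bases before the start are shown for 3 called members of each list, picked as examples that hold the letters. Stretches of this length were examined for called members with a single start, but not from every chromosome, and may not cover all such members. Of those examined, 22 of 36 G2/M stretches held CHR letters and 0 held E2F letters. For G1/S, 12 of 27 stretches held E2F letters and 0 held CHR letters. They come from RefSeq (GRCh38.p14) and run 5′ to 3′ on the gene's strand. Capitals mark TTTGAA or TTTAAA (the CHR), CCAAT, and the E2F letters TTTCCCGC, TTTGGCGC or TTCCCGCC, on either strand. TTTCCCGC and TTCCCGCC can overlap. The stretches lie at chr10:128126424-128126533 (MKI67, minus strand), chr5:69167040-69167149 (CCNB1, plus), chr5:138179002-138179111 (KIF20A, plus), chr3:48188418-48188527 (CDC25A, minus), chr20:33686386-33686495 (E2F1, minus) and chr16:85688955-85689064 (GINS2, minus).
MKI67: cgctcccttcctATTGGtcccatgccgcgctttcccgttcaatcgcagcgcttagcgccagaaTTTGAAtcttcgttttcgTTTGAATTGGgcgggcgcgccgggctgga
CCNB1: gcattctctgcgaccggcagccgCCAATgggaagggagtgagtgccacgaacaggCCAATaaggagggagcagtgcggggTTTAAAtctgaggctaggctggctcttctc
KIF20A: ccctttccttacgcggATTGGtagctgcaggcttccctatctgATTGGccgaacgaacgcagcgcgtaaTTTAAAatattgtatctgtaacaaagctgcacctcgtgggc
CDC25A: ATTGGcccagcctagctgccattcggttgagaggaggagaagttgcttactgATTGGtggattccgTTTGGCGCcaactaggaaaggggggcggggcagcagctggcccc
E2F1: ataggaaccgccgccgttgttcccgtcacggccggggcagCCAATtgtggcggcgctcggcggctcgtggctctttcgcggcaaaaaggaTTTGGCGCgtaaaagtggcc
GINS2: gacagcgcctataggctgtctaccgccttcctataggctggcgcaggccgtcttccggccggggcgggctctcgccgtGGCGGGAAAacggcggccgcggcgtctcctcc

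The CHR letters of CCNB1 begin 30 bases before the start and those of KIF20A 41 bases before it, each downstream of a pair of CCAAT boxes. The E2F letters of CDC25A begin 44 bases before the start and those of E2F1 20 bases before it. Over the window from 250 bases before to 50 after each start, CHR letters were present for 37 of 43 matched G2/M genes (86%) and 6 of 38 matched G1/S genes (15.8%). E2F letters had the reverse distribution, with 23 of 38 G1/S genes (60.5%) and 3 of 43 G2/M genes (6.98%). CCAAT letters separated the lists less, with 60.5% of G1/S and 81.4% of G2/M genes against 43.4% of all tested protein-coding genes.

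Of 944 matched protein-coding genes called lower, 30.4% held CHR letters, 17.4% E2F letters and 17.2% both CHR and CCAAT letters. These 944 include members of both lists, and the 868 others had 28.5%, 16% and 14.9%. The 764 genes called higher had 20.5%, 6.15% and 8.90%. Over all 10220 tested protein-coding genes matched to RefSeq the shares were 21.1%, 9.32% and 8.92%, and over the 27305 genes with a RefSeq promoter 27.9%, 5.50% and 11.2%. With the shorter window from 100 bases before to 50 after the start, the CHR share was 18.3% for genes called lower and 9.52% over all tested protein-coding genes. A match is a description of the letters, not of a bound site.

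Outside the 2 cell cycle lists, the lowest named genes included CENPI of the inner kinetochore (-1.87 ± 0.28), GINS4 of the replicative helicase (-1.66 ± 0.22), XRCC2 of homologous recombination (-1.51 ± 0.15), and ARHGEF39, a guanine nucleotide exchange factor (-1.71 ± 0.21). ARHGEF39 overlaps CCDC107 on the opposite strand. The strand setting of the counting is not given in the sources used here, so reads of such partners cannot be told apart. The smallest p-values among lower genes belonged to NRGN, B4GALNT1, KNSTRN, SAPCD2 and PRR11.

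NRGN, neurogranin, a calmodulin-binding protein best known from neurons, had the smallest p of the named genes. It stood at 27.5, 27.8 and 26.2 CPM in untreated and 36.5, 42.3 and 37.5 CPM in treated parental cells, a rise of 0.51 (adjusted p = 0.00016). In SDS22-degron cells it fell from 28.7, 31.1 and 32.4 CPM to 12.5, 13.3 and 13.01 CPM, a change of -1.25. The groups did not overlap in either line, and the interaction was -1.76 ± 0.12 (adjusted p = 4.09e-07). Computed from the 4 libraries of each replicate number alone, it was -1.59, -1.82 and -1.82. B4GALNT1, a glycosyltransferase of ganglioside synthesis, followed the same course, rising by 0.42 in parental cells and falling by 1.20 in SDS22-degron cells. FAM111B, a protease gene, and CTSV, a lysosomal cysteine protease, rose by 0.45 and 0.79 in parental cells and fell by 1.03 and 0.43 in SDS22-degron cells.

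Several genes moved in the opposite sense. ELF3, an epithelial ETS factor, stood at 67.1, 51.4 and 69.9 CPM in untreated parental cells and fell to 32.8, 24.2 and 33.5 CPM on treatment. Its SDS22-degron level started lower, at 28.8, 28.6 and 29.2 CPM, and rose to 37.1, 43.1 and 41.4 CPM. The interaction was 1.54 ± 0.17 (adjusted p = 2.76e-05), and the lines differed before treatment by -1.12. NR4A2, an orphan nuclear receptor, and SOX4, a transcription factor of progenitor cells, had the same form, with interactions of 1.36 ± 0.22 and 1.30 ± 0.24. SERINC5, a membrane protein, fell by 0.37 in parental and rose by 0.65 in SDS22-degron cells. ELF3 overlaps its antisense gene ELF3-AS1.

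Of 28 tested p53 targets, genes induced by the tumour suppressor p53, 11 were called higher and 0 lower. That is 39.3%, against 14.4% of all tested genes. Their median response was 0.45 in SDS22-degron and -0.012 in parental cells. BBC3, the BH3-only protein PUMA, stood at 37.9, 31.3 and 39.2 CPM in untreated and 37.3, 27.8 and 41.9 CPM in treated parental cells. SDS22-degron cells went from 47.2, 39.5 and 42.4 CPM to 101, 136 and 110 CPM, and the interaction was 1.44 ± 0.19 (adjusted p = 7.6e-05). The treated SDS22-degron libraries were all above every other library. SESN2 is also in the integrated stress response list and counts in both.

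CDKN1A, the CDK inhibitor p21, started higher in SDS22-degron cells, with 445, 516 and 551 CPM against 254, 272 and 263 CPM in parental cells. Treatment raised it to 753, 829 and 891 CPM in SDS22-degron cells, while treated parental libraries held 258, 265 and 297 CPM. Its interaction was 0.65 ± 0.12 (adjusted p = 0.0011). TP53INP1, a regulator of p53 and of autophagy, had an interaction of 0.90 ± 0.13, the stress cytokine GDF15 1.19 ± 0.29 and GADD45A, a growth arrest gene, 1.26 ± 0.20. MDM2, the E3 ligase that p53 induces, had 0.21 ± 0.11 (adjusted p = 0.213). Not every brake moved alike.

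Among 22 tested pocket proteins, CDK inhibitors and quiescence genes, 4 were called higher and 2 lower (27.3%, against 14.4% of all tested genes). RBL2, the pocket protein p130 that joins MuvB in resting cells, rose by 0.60 in SDS22-degron cells against 0.05 in parental cells (interaction 0.55 ± 0.10). RBL1, the related p107, moved the other way (-0.87 ± 0.16), as did the MuvB subunit LIN54 (-0.56). The antiproliferative genes BTG1 (0.85 ± 0.19) and CCNG2 (0.88 ± 0.19) were higher. The count of lower calls was 4 without the first treated SDS22-degron library.

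In the BCL2 family, 3 of 15 tested genes were called higher and 1 lower (26.7%, against 14.4% of all tested genes). Besides BBC3, the higher genes were the BH3-only gene BCL2L11 (BIM), with 0.56 ± 0.13, and HRK, with 1.08 ± 0.26. HRK did so through a parental fall of 1.09, from 4.14, 3.21 and 3.46 CPM to 1.4995, 1.82 and 1.73 CPM. BCL2 itself, the anti-apoptotic founder, fell from 9.19, 8.80 and 8.20 CPM to 3.89, 3.95 and 5.11 CPM in SDS22-degron cells and had an interaction of -1.07 ± 0.23. Without the first treated SDS22-degron or the first untreated parental library, 2 members were lower.

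Genes of the integrated stress response (ISR), which acts through eIF2 phosphorylation and ATF4, had the lower Dox/IAA response in parental cells. The 26 tested genes of this list had a median response of -0.72 in parental cells and -0.040 in SDS22-degron cells. Of these, 11 were called higher and 0 lower (42.3%, against 14.4% of all tested genes). Without the first untreated parental library the parental median was -0.42. In parental cells 20 members fell (15 without that library), against 15.7% of all tested genes. In SDS22-degron cells 10 fell and 4 rose, against 25.5% and 26.0% of all tested genes. DDIT4, an inhibitor of mTORC1, stood at 336, 95.6 and 114 CPM in untreated and 60.1, 25.6 and 48.0 CPM in treated parental cells. SDS22-degron cells held 68.9, 65.0 and 67.5 CPM before and 88.2, 80.1 and 66.9 CPM after treatment.

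The first untreated parental library stood far above both its replicates. The DDIT4 interaction was 2.25 ± 0.48 (adjusted p = 0.00406), and 1.45 without that library (adjusted p = 0.0021). CHAC1, a glutathione-degrading enzyme, was at 82.3 CPM in that library and 23.3 and 23.4 CPM in its replicates, and its interaction went from 2.05 to 1.16 without it. For SESN2, a leucine sensor, it went from 1.52 to 0.95, and for TSC22D3, a glucocorticoid-induced gene outside the list, from 1.67 to 0.84, where the call was lost (adjusted p = 0.0506). CHAC1 lost its call without the first or the third untreated or the first treated SDS22-degron library. TSC22D3 lost it without any untreated SDS22-degron library, the first treated one or the second treated parental one.

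The transcription factor DDIT3 (CHOP) had the largest value in the ISR list, 2.65 ± 0.94, but was not called (adjusted p = 0.0662). It stood at 207 CPM in the same library and at 13.9 and 20.4 CPM in its replicates, and its interaction was 0.42 without that library. SLC3A2, the heavy chain of amino acid transporters (0.67 ± 0.18), and the serine synthesis enzyme PHGDH (0.49 ± 0.12) kept their calls in all 12 leave-outs. The list's count of higher calls was 6 without the first untreated parental library, 5 without the first treated SDS22-degron library, 6, 7 and 6 without the first, the second and the third untreated SDS22-degron libraries, and 7 without the second treated parental library. A single member was lower without the second untreated parental, the second treated parental, the third untreated SDS22-degron, or the first or the third treated SDS22-degron library.

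Of 19 tested genes of the unfolded protein response of the endoplasmic reticulum, 0 were called by the quasi-likelihood test. The median interaction was 0.25 with all libraries and -0.058 without the first untreated parental library. At an unadjusted p under 0.05 there were 6 of the 19, against 4779 of all 16657 tested genes. The likelihood ratio test of edgeR called 2 of the 19, DESeq2 0 and limma-voom 0. Leaving out the second or the third untreated parental library brought 5 and 6 calls. Of 14 tested NF-kB targets and chemokines 0 were called by the quasi-likelihood test, 2 passed an unadjusted p, and the other tools called 0. A single member was higher without the first untreated, the second treated or the third treated parental library.

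Genes of protein synthesis responded in both lines, by different amounts. Cytosolic ribosomal protein genes had a median response of -0.42 in parental and -0.18 in SDS22-degron cells. In parental cells 50 of the 51 fell (15.7% of tested genes fell there), and in SDS22-degron cells 24 did (25.5%). All 51 interactions were above 0, between 0.0084 and 0.43, and 9 were called higher (17.65%, against 14.4% of all tested genes called in either direction). RPS19 of the small subunit had 485, 436 and 473 CPM in untreated and 406, 329 and 375 CPM in treated parental cells, against 566, 565 and 558 CPM and 614, 596 and 537 CPM in SDS22-degron cells. Its interaction was 0.38 ± 0.11 (adjusted p = 0.0256).

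The number of called ribosomal protein genes rested on single libraries, while the median stayed between 0.20 and 0.30. It was 20 without the second untreated and 18 without the first treated parental library. It was 0 without the first or the third untreated parental library, the second untreated SDS22-degron library, or the first or second treated SDS22-degron library. Without the first untreated SDS22-degron library it was 1, without the third untreated SDS22-degron or the second treated parental library 2, and without the third treated parental library 4. Several of these genes have near-identical processed pseudogenes, whose reads the counting could split.

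Ribosome biogenesis genes and other MYC targets moved the opposite way. Their median response was -0.86 in SDS22-degron and -0.54 in parental cells. Of the 28, 14 were called lower and 0 higher (50%, against 14.4% of all tested genes). All 28 interactions were below 0. FBL, the nucleolar methyltransferase fibrillarin, fell from 239, 226 and 225 CPM to 114, 99.7 and 88.6 CPM in SDS22-degron cells and from 227, 218 and 215 CPM to 145, 136 and 132 CPM in parental cells. The groups did not overlap in either line, and the interaction was -0.52 ± 0.11 (adjusted p = 0.00355).

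NME1, a nucleoside diphosphate kinase, had -0.63 ± 0.10, the pyrimidine synthesis enzyme CAD -0.58 ± 0.09 and BOP1, a large-subunit assembly factor, -0.55 ± 0.09. MYC itself fell by 1.30 in SDS22-degron and by 1.18 in parental cells, and its interaction of -0.12 had a 95% confidence interval of -0.49 to 0.25. Without the third untreated SDS22-degron library, 9 of the 28 were called lower. In the mitochondrial protein synthesis list, 9 of 30 were called lower and 0 higher (30%, against 14.4% of all tested genes). Its median response was -0.55 in SDS22-degron and -0.32 in parental cells. MRPL12, MRPS2 and MRPL24 of the mitochondrial ribosome had interactions of -0.48 ± 0.10, -0.45 ± 0.10 and -0.49 ± 0.13.

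Among 16 heat shock genes, 5 were called lower and 0 higher (31.25%, against 14.4% of all tested genes). HSP90AA1, the inducible HSP90 chaperone, had an interaction of -0.57 ± 0.15 and HSPD1, the mitochondrial chaperonin, -0.53 ± 0.12. HSPD1 overlaps HSPE1 and MOB4 on the opposite strand, and HSP90AA1 overlaps WDR20. The list's count was 10 without the second untreated parental library. It was 3 without the first or second treated SDS22-degron library, and 2 without the third treated or the first or second untreated SDS22-degron library, the second treated parental library, or the first or the third untreated parental library. Of the 13 mitochondrially encoded mRNAs only MT-ND6 was called (7.69%, against 14.4% of all tested genes), with an interaction of -1.31 ± 0.30. MT-ND6 is encoded on the strand opposite to the other 12, and both second parental libraries stood apart for it, at 313 and 356 CPM against 169 to 216 CPM in the other parental libraries. Its interaction was -1.68 without the second untreated and -1.001 without the second treated parental library. Without the second untreated parental or the second treated SDS22-degron library 2 of these mRNAs were lower. Of 11 tested replication-dependent histone genes and histone variants, H2AFX (-0.92 ± 0.12) and HIST1H1C (-0.86 ± 0.22) were lower, the latter through a parental rise of 1.14. These calls made up 18.2% of the 11, near the 14.4% of all tested genes. The other way, 7 of the 11 interactions were above 0, and the median was 0.039. In SDS22-degron cells 6 of the 11 rose and 1 fell, against 26.0% and 25.5% of all tested genes. In parental cells 5 rose and 0 fell, against 15.9% and 15.7%. The libraries were poly-A selected, and 11 of 22 listed genes passed the count filter.

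**Figure D2:**
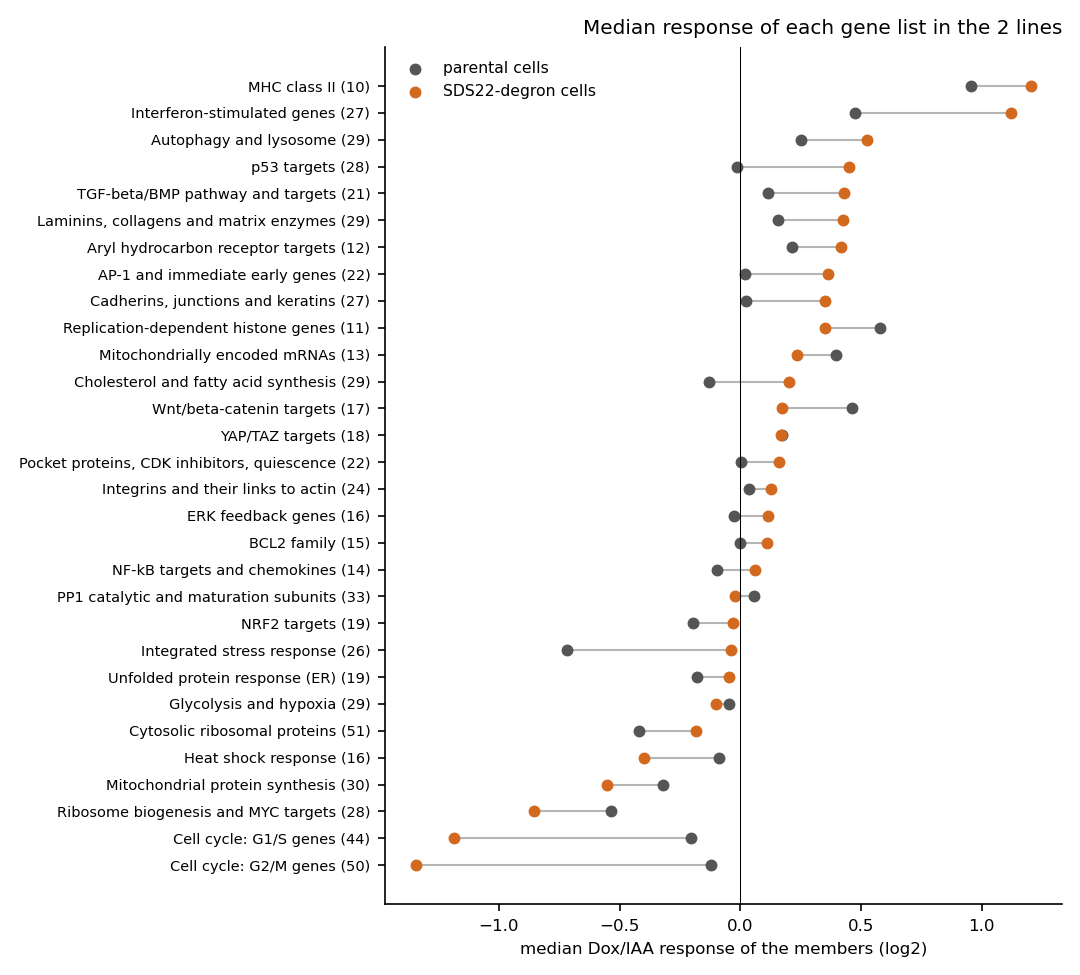
Median log2 response to Dox/IAA over the tested members of each gene list (x axis) in parental cells (grey) and SDS22-degron cells (orange), with the number of members in brackets. The G2/M and G1/S lists had the widest gaps, and the ISR list was the one with a low parental median (-0.72) beside an SDS22-degron median near 0 (-0.040).

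Interferon-stimulated genes rose in both lines, and further in SDS22-degron cells. Of 27 tested members, 24 rose in SDS22-degron cells (26.0% of tested genes rose there) and 18 in parental cells (15.9%), with medians of 1.12 and 0.48. The interaction was called higher for 9 and lower for 1 (37.0%, against 14.4% of all tested genes). IFI6, an interferon-induced mitochondrial protein, rose from 9.96, 9.07 and 10.1 CPM to 21.8, 13.8 and 22.9 CPM in parental cells and from 10.5, 9.70 and 9.87 CPM to 54.9, 45.4 and 46.0 CPM in SDS22-degron cells. The interaction was 1.27 ± 0.21 (adjusted p = 0.0006).

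The ubiquitin-like modifier ISG15 had an interaction of 0.65 ± 0.13 and the RNA-binding IFIT2 had 1.27 ± 0.25. BST2, a tether of budding virions, had 2.18 ± 0.42 at levels of at most 3.74 CPM. OAS3, a sensor of double-stranded RNA, was the lower one, rising by 0.28 in parental and falling by 0.51 in SDS22-degron cells. The antigen-presenting MR1, outside the list, rose by 0.55 and 1.91 in parental and SDS22-degron cells (interaction 1.36 ± 0.16). Of the 10 tested MHC class II genes, 9 rose in SDS22-degron cells (26.0% of tested genes rose there) and 7 in parental cells (15.9%). Their medians were 0.96 in parental and 1.21 in SDS22-degron cells. The quasi-likelihood test called 0 of them in the interaction, as did the likelihood ratio test, DESeq2 and limma-voom. Of the 10, 1 passed an unadjusted p under 0.05, against 4779 of all 16657 tested genes. The median SE of the 10 was 0.36.

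Of 12 tested aryl hydrocarbon receptor (AhR) targets, 6 rose and 1 fell in parental cells, and 7 rose and 1 fell in SDS22-degron cells. Of all tested genes, 15.9% rose in parental and 26.0% in SDS22-degron cells. The interaction was called higher for 3 of the 12 and lower for 0 (25%, against 14.4% of all tested genes). The receptor's repressor AHRR stood at 37.8, 43.9 and 40.6 CPM in untreated and 94.996, 75.1 and 81.2 CPM in treated parental cells. In SDS22-degron cells it rose from 45.9, 46.1 and 38.1 CPM to 136, 118 and 136 CPM, and the interaction was 0.55 ± 0.14 (adjusted p = 0.0116). AHRR overlaps PDCD6 on the same strand. TIPARP, an ADP-ribosyltransferase of the same feedback, had 0.49 ± 0.10. CYP1A1, the classical target, had an interaction of 0.04. A further called member, CYP1B1, a cytochrome P450 gene, had 0.79 ± 0.23. It lost its call without the second or the third untreated or the first or the third treated parental library, the third untreated or the first or the third treated SDS22-degron library.

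Epithelial junction genes were among the higher calls. In the list of cadherins, junctions and keratins, 12 of 27 were called higher and 0 lower (44.4%, against 14.4% of all tested genes). Its median response was 0.35 in SDS22-degron and 0.024 in parental cells. The count was 7 without the third treated SDS22-degron library. JUP, plakoglobin of desmosomes and adherens junctions, had 323, 290 and 362 CPM in untreated and 449, 354 and 427 CPM in treated parental cells, against 227, 215 and 247 CPM and 437, 441 and 502 CPM in SDS22-degron cells. The interaction was 0.67 ± 0.13 (adjusted p = 0.00233), and the treated groups of both lines overlapped.

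The tight junction genes CLDN4 (0.69 ± 0.15) and CLDN3 (0.87 ± 0.18) and the desmosomal cadherin DSC2 (0.63 ± 0.12) were higher as well. KRT80, an epithelial keratin, had 1.23 ± 0.24 through a parental fall of 1.49, from 17.1, 12.4 and 23.3 CPM to 6.60, 5.61 and 6.53 CPM.

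Matrix genes had 10 higher and 1 lower call among 29 (37.9%, against 14.4% of all tested genes). CEMIP, a hyaluronan-degrading protein, rose from 39.8, 36.5 and 38.4 CPM to 252, 227 and 281 CPM in parental cells and from 17.8, 19.3 and 16.1 CPM to 203, 254 and 252 CPM in SDS22-degron cells. Both lines thus reached overlapping levels from different starting levels, and the interaction was 1.01 ± 0.14. COL6A2, a collagen VI chain, had 0.60 ± 0.10. PLAU, the plasminogen activator urokinase, fell by 1.04 in parental cells and had a response of 0.07 in SDS22-degron cells (interaction 1.11 ± 0.18). SPARC, a matrix glycoprotein, fell by 3.57 in parental and 1.74 in SDS22-degron cells.

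In the TGF-beta/BMP list, 6 of 21 were called higher and 0 lower. ID3, an inhibitor of bHLH factors and a BMP target, stood at 155, 151 and 168 CPM in untreated and 134, 156 and 166 CPM in treated parental cells. SDS22-degron cells went from 119, 118 and 113 CPM to 207, 190 and 209 CPM, without overlap, and the interaction was 0.85 ± 0.11 (adjusted p = 6.25e-05). ID1 had 0.62 ± 0.10, the inhibitory SMAD6 0.98 ± 0.18, the receptor TGFBR2 0.72 ± 0.16 and the SMAD corepressor SKIL 0.82. The share of members called, 28.6% in this list, compares with 14.4% of all tested genes.

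Several signalling lists had shares of called genes not far above the 14.4% of all tested genes. These were 18.2% for AP-1, 20.8% for integrin and 22.2% for YAP/TAZ genes. Shares were larger for ERK feedback (37.5%) and Wnt genes (29.4%). Of 16 ERK feedback genes, 5 were called higher and 1 lower, and the higher count was 3 without the first untreated parental, the second or the third untreated SDS22-degron or the third treated SDS22-degron library. The dual-specificity phosphatase DUSP4 (0.52 ± 0.11) and the ETS factor ETV5 (0.44 ± 0.10) were higher, and FOSL1, an AP-1 subunit, was lower (-0.58 ± 0.12). Among 22 AP-1 and immediate early genes 2 were called in each direction: FOSL1 and the shear-responsive factor KLF2 (-0.75 ± 0.14) lower, FOSL2 (0.57 ± 0.14) and ATF3 (1.20) higher. ATF3, also an ISR gene, lost its call without the first untreated parental library, the first or second treated parental library, any untreated SDS22-degron library, or the first or the third treated SDS22-degron library.

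Among 18 YAP/TAZ targets, 4 were called lower and 0 higher, including the tissue factor gene F3 (-0.77 ± 0.11) and the receptor kinase AXL (-0.48 ± 0.12). CTGF and CYR61, common readouts of YAP, had -0.26 and 0.14. A single target was higher without the second untreated parental library. Of 17 Wnt targets, 3 were lower and 2 higher. DKK1, a secreted Wnt inhibitor, rose by 0.51 in parental cells, with a response of -0.16 in SDS22-degron cells, where its untreated level was above the parental one by 2.30. CD44, a hyaluronan receptor, fell by 0.66 in parental cells (interaction 0.54 ± 0.13). In the integrin list, 3 of 24 were higher and 2 lower, and ITGA2, a collagen receptor subunit, was the member called in all leave-outs (0.71 ± 0.16). The higher count was 1 without the first or second untreated or the third treated SDS22-degron library, the third untreated or the second treated parental library. The lower count was 0 without any untreated SDS22-degron library, the first untreated or the second or the third treated parental library, and 1 without the second or the third treated SDS22-degron or the third untreated parental library.

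Of 29 tested autophagy and lysosome genes, 11 were called higher and 2 lower (44.8%, against 14.4% of all tested genes). Medians were 0.53 in SDS22-degron and 0.25 in parental cells. MAP1LC3B, the LC3B protein of autophagosome membranes, rose from 91.7, 74.6 and 82.0 CPM to 109, 97.0 and 110 CPM in parental cells and from 69.0, 74.8 and 73.1 CPM to 153, 156 and 165 CPM in SDS22-degron cells. The treated SDS22-degron libraries lay above all others, and the interaction was 0.78 ± 0.11 (adjusted p = 0.000134). The lysosomal enzyme gene HEXA had 0.77 ± 0.17 and the membrane protein LAMP2 0.45 ± 0.09. The higher count was 7 without the second untreated SDS22-degron library. The lysosomal glycosidase GLA was lower (-0.61). The lower count was 0 without the first untreated parental, the second treated parental or the second or the third untreated SDS22-degron library, and 1 without the third untreated parental, the first untreated SDS22-degron or any treated SDS22-degron library. GLA lost its call in the former 4 cases and without the second treated SDS22-degron library.

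Metabolic lists held calls in both directions. Among 29 glycolysis and hypoxia genes, 4 were higher and 4 lower (27.6%, against 14.4% of all tested genes). LDHA, lactate dehydrogenase A, fell by 1.02 in SDS22-degron and 0.26 in parental cells, with an interaction of -0.76 ± 0.12, and the glycolytic isomerase GPI had -0.43 ± 0.08. ALDOC, an aldolase, had 1.14 ± 0.28 and the vasoactive peptide gene ADM 0.71 ± 0.15. The higher count was 2 without the second untreated SDS22-degron or the first untreated parental library. Of 19 NRF2 targets 15.8% were called, near the 14.4% of all tested genes, with 11 interactions above 0 and 8 below. The export pumps ABCC2 (1.11 ± 0.19) and ABCC3 (0.79 ± 0.20) were higher and the peroxiredoxin PRDX1 was lower (-0.37 ± 0.11). PRDX1 lost its call without the first or the third untreated or the second treated parental library, or the second or the third untreated SDS22-degron library, and 2 members were lower without the second untreated or first treated parental or the third treated SDS22-degron library. ABCC2 fell in parental cells from 275, 191 and 277 CPM to 125, 83.3 and 129 CPM and stood between 148 and 171 CPM in all 6 SDS22-degron libraries.

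Of 29 genes of cholesterol and fatty acid synthesis, 2 were called higher and 0 lower (6.90%, against 14.4% of all tested genes). Yet 27 of the 29 values were above 0, and the median was 0.35. The count was 12 without the second treated SDS22-degron library, 4 without the first treated parental library and 0 without the first untreated parental library. It was 1 without the third untreated or second treated parental library, any untreated SDS22-degron library, or the first or the third treated SDS22-degron library. Lower calls numbered 2 without the third treated SDS22-degron library and 1 without the first or second treated parental library. MSMO1, a sterol demethylation enzyme, had 0.82 ± 0.22, with 184, 131 and 241 CPM in treated SDS22-degron cells and 112, 125 and 113 CPM in untreated ones. Its call was lost without the first untreated parental library.

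Of 33 tested genes for PP1 catalytic, regulatory and maturation subunits, 6 were called lower and 0 higher (18.2%, against 14.4% of all tested genes), and the median was -0.11. The 3 with the lowest p were MKI67, the kinetochore scaffold KNL1 (-1.27 ± 0.20) and CDCA2, the chromatin targeting subunit RepoMan (-1.16 ± 0.18). All 3 are PP1 targeting proteins that cells express mainly when they divide. The other lower ones were PPP1R10 (-0.52), PPP1R14B (-0.51) and PPP1R14C (-0.76). PPP1R11, Inhibitor-3, had -0.03, PPP1R2, Inhibitor-2, 0.16 and VCP, the p97 ATPase, -0.13. Without the third untreated SDS22-degron library, or the second or the third untreated parental library, 1 member was higher.

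Some called genes owed the difference to a larger parental response. There were 176 such genes among the higher calls and 136 among the lower ones, each with a parental response that was called and larger in size. TNFSF18, a TNF family ligand, fell in parental cells from 16.2, 12.7 and 18.95 CPM to 0.600, 0.632 and 1.34 CPM and in SDS22-degron cells from 49.2, 49.2 and 65.6 CPM to 8.77, 10.5 and 13.01 CPM. It fell in both lines without overlap, and the interaction was 1.86 ± 0.36 (adjusted p = 0.00208).

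NTN1, the guidance factor netrin-1, rose from 5.40, 4.53 and 4.70 CPM to 20.5, 19.04 and 17.5 CPM in parental cells and from 14.9, 15.9 and 16.7 CPM to 25.5, 24.7 and 26.8 CPM in SDS22-degron cells. Its interaction was -1.27 ± 0.15. HPCAL4, a neuronal calcium sensor, and ETS1, a transcription factor, rose by 1.21 and 0.96 in parental cells and had responses of -0.11 and -0.26 in SDS22-degron cells. In these 3 genes untreated SDS22-degron cells lay above untreated parental cells.

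The median interaction varied little with gene position or composition, while the direction of the calls varied with gene length. Chromosome medians lay between -0.037 and 0.039 over 23 chromosomes, while untreated lines differed by chromosome medians of -0.30 to 0.11. Over 5 bins of GC content the median lay between -0.029 and 0.017, and over 5 bins of gene length between -0.051 and 0.035. Of the shortest genes 8.22% were called, 72 higher and 202 lower. Of the longest genes 16.1% were called, 291 higher and 244 lower. Of the genes called lower, 1142 were protein-coding and 174 processed pseudogenes, and of those called higher 935 and 49. Calls covered 16.7% of tested protein-coding genes and 8.7% of tested processed pseudogenes. Reads on processed pseudogenes may come from their parent genes and are uncertain.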

How the data were processed

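RNA sequencing was analysed in 12 libraries, 3 for each of 4 groups taken from the sample labels. Values are unnormalized read counts for 58233 genes, as the authors deposited them. A GC content in percent for each gene, as deposited by the authors, was used for a correction. The libraries were poly-A selected and stranded, and the submitters' processing notes name cutadapt 1.15, Bowtie2 2.3.3.1, STAR 2.5.2b, SAMtools 1.5 and featureCounts 1.5.3 and the build GRCh38, without roles. The annotation release and the strand setting are not given in the sources used here. The number of count columns without a sample was 0.

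The filterByExpr function, given the groups and a minimum count of 10, kept 16657 of the 30524 with at least 1 count. Counts were TMM-normalized (factors 0.971 to 1.03) and modelled as 4 group means in edgeR 4.0.16 (R 4.3.3). The contrast was tested with the quasi-likelihood F test, with Benjamini-Hochberg adjustment over the tested genes. The study used the likelihood ratio test of edgeR, for treated SDS22-degron against parental cells. The procedure was tested on simulated data. There it recovered 24% of planted interactions of 0.5 in absolute log2, 74% of those of 1 and 88% of those of 2. Replicates differed by more than counting noise (chi-square per degree of freedom 2.06 to 9.02).

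Gene lists were written from general knowledge. The members and lists were chosen with earlier results of these data known, so counts over them are descriptions. Named genes were the 10 highest and 10 lowest called genes by interaction, the 5 smallest p in each direction, the 4 largest in each direction with opposite responses, the 4 largest in each direction with a larger parental response, and up to 3 called members of each list with the smallest p. All but the last had to have a mean of at least 10 CPM, the same sign at each replicate number, a named symbol and no pseudogene type. Further list members were named after their values were seen, and some results are not reported here.

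Promoters (250 bases before to 50 after a start) were taken from RefSeq, GRCh38.p14, and matched by symbol or synonym to 10220 of 12425 tested protein-coding genes. Other gene types were not used, and a gene with several starts counted once if any window held a motif. In the lists, 38 of 44 and 43 of 50 genes matched. Alternatives tried were DESeq2 1.42.0, edgeR's likelihood ratio test, limma-voom (limma 3.58.1), other normalizations and filters, the replicate number as a block, a GC correction per library, glmTreat, and each library left out in turn.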

Additional observations from a re-analysis of the deposited data

Results flagged for a closer look

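The response to Dox/IAA differed between the lines by the interaction test itself for 2396 genes, and every gene described above as called in the interaction belongs to them. Among these, 8 named genes stand out because both responses were called and had opposite signs. Higher in SDS22-degron than in parental cells were ELF3, with an interaction of 1.54, SESN2 with 1.52, NR4A2 with 1.36 and SOX4 with 1.30. Lower were NRGN with -1.76, B4GALNT1 with -1.63, FAM111B with -1.49 and CTSV with -1.21. ELF3, NR4A2 and SOX4 were also lower in untreated SDS22-degron than in untreated parental cells, with log2 differences of -1.12, -1.05 and -1.46. For NRGN and B4GALNT1 the untreated lines differed by 0.18 and 0.10. The SESN2 value was 0.95 without the first untreated parental library. Groups of 3 libraries were not tested for outlying samples.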

How the results depend on the processing

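The counts of genes called in the interaction, 1005 higher and 1391 lower, stayed within 1.5 times of these values with 10 of the 12 other tests, normalizations, filters and covariates. The exceptions were the GC correction with the replicate block (1533 higher, with 1715 lower) and glmTreat against an absolute log2 value of 0.5 (46 higher and 209 lower), which by construction asks for a larger difference; under glmTreat 21 genes of the G1/S list were lower. Without a filter on low counts, 383 genes were higher and 636 lower by the cut-off of the study, against 191 and 409, and more genes were tested there. Leaving out 1 library gave 672 to 1176 higher and 1007 to 1781 lower genes, and 160 to 247 and 307 to 521 by the cut-off. Of 104 called named genes, 3 lost the call under at least 1 of 11 alternatives other than glmTreat, 14 when at least 1 library was left out, and 0 changed direction; 45 passed glmTreat.

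Replicate numbers were not taken as pairs in the interaction. Deviations of same-numbered libraries correlated at -0.057 to 0.25, above 0.1 in 7 of 18 pairs, although 11 of 12 libraries were closest to their own number, a hint from the data only. All 3 same-numbered pairs were above 0.1 for 2 of the 6 pairs of groups, untreated and treated parental cells (0.124, 0.246 and 0.131) and the treated groups of both lines (0.101, 0.133 and 0.138). With the replicate block, 1398 genes were higher and 1730 lower. Called members went from 9 to 18 higher in the ribosomal protein list, from 2 to 6 higher and 0 to 2 lower in the cholesterol list, from 0 to 2 higher in the unfolded protein response, from 2 to 4 higher in the AP-1 list and from 6 to 10 lower in the PP1 list. Lower calls went from 1 to 2 in the NRF2 and BCL2 lists and from 0 to 1 in the ISR list. The parental response had 2999 genes higher and 2986 lower with the block, against 2656 and 2608. At this depth the median SE of 0.156 limits which small interactions can be called, and low genes were called less often, in 3.48% of the lowest and 22.6% of the highest of 5 bins of mean CPM.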
